A study of Mus musculus with 1829 samples.

Results

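The measurements are quantitative PCR readings of single CD4+ T cells from NOD/ShiLtJ mice, an inbred strain that develops autoimmune diabetes, made on chips that read 96 cells with 96 assays. Described here are 7 of the 96 assays, those for Ifit3, Isg15, Ifi44, Cxcl10, Il25, Ccr2 and Ccr6. They were chosen by the share of wells that detected them, so that share is given as a description with no test. All cells carried a PE-labelled IAg7 tetramer, the mouse's own class II molecule loaded with insulin B chain residues 12-20 (1119 wells) or 13-21 (704 wells). The 1823 wells used came from lymph node (712), pancreatic islets (278 and 215 in the classes described next), spleen (325) and blood (293) at 6, 7, 8, 12 or 13 weeks of age, on 22 chips. They belong to 29 animals or lettered sorts. The labels do not say whether a lettered sort was 1 animal, and the mice carried no other allele or treatment in the labels, so the groups compared are tissues and classes of wells, not treatments. Animals and sorts are the replicates where tissues are compared and chips where classes of wells are compared, and p-values measure only the spread between these.

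A reading is a Ct, the cycle at which the fluorescence of a reaction crossed its threshold, so 1 cycle earlier stands for about a doubling of product under ideal amplification. An assay counted as detected in a well when the export called the reading a pass and the Ct was under 24. Wells were split by how many of the 96 assays were detected on the same chip. In 1274 wells (69.9%) under 20 assays were detected, with a median of 10, and in 549 wells it was 20 or more, with a median of 41. Cd4, which defines the sorted cells, was detected in 19 of 1274 wells of the first class (1.49%) and in 499 of 549 of the second (90.9%), and Cd3e in 1.81% and 86.5%. The wells of the first class were proposed as poor in RNA. Gapdh was detected in 99.8% of them, at a mean Ct of 10.69 against 10.16 in the second class. Hprt, the other reference gene of the fixed list on the panel, was detected in 1.65% against 70.3% of wells. The reference genes thus differed, and the wells of the first class are called here wells with under 20 assays. The panel held none of the fixed B cell, myeloid, NK or beta cell markers, and Cd8a was detected in 0.0785% and 1.09% of wells. On the chips another 57 wells are named empty or zero. They matched no sample label and their readings were not analysed, so what each assay reads without a template is not given here.

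Type I and type II interferons bind surface receptors whose signal switches on interferon-stimulated genes. Ifit3 encodes an antiviral protein of the Ifit family, Isg15 a ubiquitin-like modifier and Ifi44 another interferon-induced protein, while Cxcl10 encodes a chemokine that binds Cxcr3 on activated T cells. Il25, also called interleukin-17E, is a cytokine best known from epithelial cells that favours type 2 responses. Ccr2 is the receptor for Ccl2 and is found on monocytes and on effector and memory T cells, and Ccr6 is the receptor for Ccl20, known from Th17 cells, regulatory T cells and B cells.

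Interferon-stimulated genes are often reached through a short element in their promoters. In RefSeq promoters (GRCm38.p6, 250 bases before to 50 after the start) the motif GAAANNGAAA was searched on both strands, on the minus strand as TTTCNNTTTC. It was present in 3.44% of 32851 promoters. The stretches around it are shown for the 3 members that held it and for Ifit1, a non-member of the same gene family as Ifit3 whose readings are set against the members further on; capitals mark the motif, and overlapping matches in Isg15 run together.
Ifit3, chr19:34583353-34583436, plus strand: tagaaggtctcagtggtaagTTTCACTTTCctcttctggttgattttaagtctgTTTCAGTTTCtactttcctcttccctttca
Isg15, chr4:156200855-156200916, minus strand: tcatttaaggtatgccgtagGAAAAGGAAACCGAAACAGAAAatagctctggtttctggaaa
Cxcl10, chr5:92349073-92349122, minus strand: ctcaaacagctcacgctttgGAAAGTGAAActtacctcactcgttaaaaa
Ifit1, chr19:34640765-34640833, plus strand: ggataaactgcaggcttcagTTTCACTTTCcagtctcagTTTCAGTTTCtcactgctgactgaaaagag
Ifit3 and Ifit1 each held 2 matches, Isg15 held 3 and Cxcl10 held 1. The windows of Ifi44 and Ccr2 and both listed for Ccr6 held none, which says only that these letters are not in those windows. Il25 had no entry. A match is a description of the sequence and not a measured binding site.

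All 7 assays were detected in most wells of both classes. In wells with under 20 assays Ifit3 was detected in 94.4% (95% exact interval 93.0 to 95.6%), Isg15 in 91.4%, Ccr6 in 90.6%, Ccr2 in 90.0%, Ifi44 in 85.9%, Cxcl10 in 85.6% and Il25 in 84.4%. In wells with 20 or more the shares were 97.1% for Ifit3, 94.7% for Isg15, 94.2% for Ccr6, 92.5% for Ccr2, 88.9% for Ifi44, 78.9% for Cxcl10 and 87.4% for Il25. Among the members Cxcl10 alone had the lower share in the wells with more assays, and this turned with the calls: with every reading under cycle 24 counted, whatever its call, Cxcl10 was at 86.3% (84.3 to 88.1%) and 90.5% (87.8 to 92.8%). All 7 were detected together in 865 of 1274 wells with under 20 assays (67.9%) and in 340 of 549 of the others (61.9%).

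Just below the members stood Gsk3a, a kinase, at 67.8%, and Bcl2, an inhibitor of cell death, at 65.4% of wells with under 20 assays. Next came Il-4ra at 5.49%. Over the 86 assays other than the members, Gapdh, Gsk3a and Bcl2, the median share was 0.392% in wells with under 20 assays and 34.3% in wells with 20 or more. No assay lay between 5.49% and 65.4%, so the choice of members does not turn on the exact limit, although Gapdh, Gsk3a and Bcl2 would also meet a limit of most wells.

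**Figure D1:**
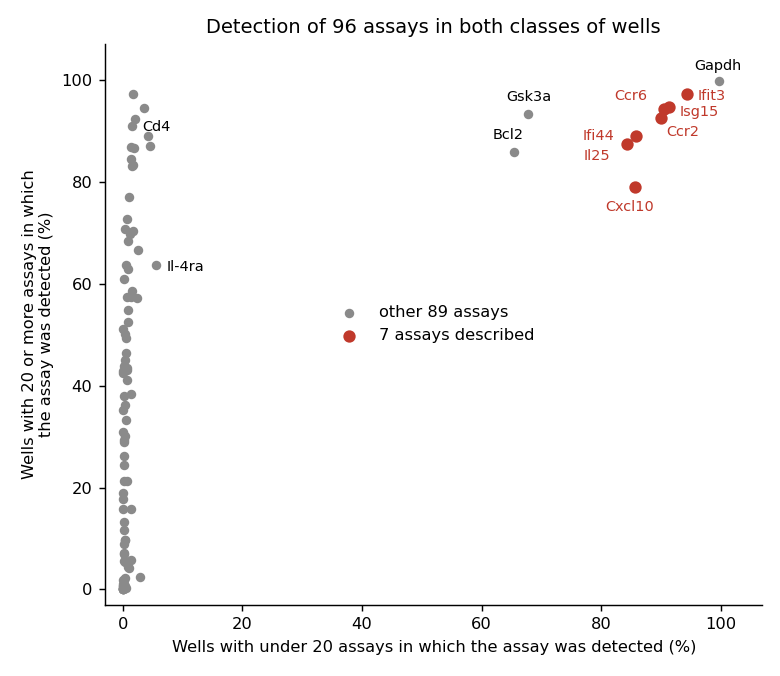
Share of wells in which each of 96 assays was detected, in wells with under 20 assays (x axis, percent of 1274 wells) and with 20 or more (y axis, percent of 549 wells); red points are the 7 assays described and grey points the other 89. The members lie between 84.4% and 94.4% on the x axis, while 86 of the others lie at or under 5.49%.

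Other genes of the same pathways were detected in about as few wells with under 20 assays as the rest of the panel. The 86 assays other than the members, Gapdh, Gsk3a and Bcl2 had a median share of 0.392% there and a highest one of 5.49%. A well enters that class by having few assays detected, so low shares of non-members in it are in part set by the class. Of 40 interferon-stimulated genes listed, 13 were on the panel, and among the non-members Ifit1, Rsad2, Mx1, Oas2, Oasl1, Irf1, Irf7 and Aim2 were detected in 0.0785 to 1.18% of wells with under 20 assays and in 0.729 to 69.8% of the others. Ifit1 was detected in 0.314% and 9.65%, and Irf7, a factor that amplifies the interferon response, in 0.314% and 36.2%. Ifi44l, a paralog of Ifi44 named here after its values were seen, was detected in 0 of 1274 and 0 of 549 wells, which allow shares of up to 0.289% and 0.67% (upper exact bounds for counting error). Of 9 chemokine receptors on the panel, the 7 non-members were detected in at most 0.942% of wells with under 20 assays and in 4.19 to 68.3% of the others. Of the interleukin-17 and Th17 list only Il-17A was measured beside Il25 and Ccr6, in 0% and 0.182% of wells, and the Th2 cytokines Il-4 and Il-5 reached at most 1.09%.

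Across the 22 chips the members' shares in wells with under 20 assays varied together. Ifit3 ranged from 67.6% to 100% with a median of 98.8%, Isg15 from 61.8% to 100% (median 94.7%) and Ccr6 from 61.8% to 100% (median 95.5%). Cxcl10 and Il25 both went down to 47.1%, with medians of 88.7% and 89.6%. The members' shares fell from step to step with a later Gapdh. Where Gapdh crossed before cycle 10 (340 wells), every member was detected in 97.4 to 100% of wells. Between cycles 10 and 11 (642 wells) the shares ran from 91.6% (Il25) to 99.7% (Ifit3). Between cycles 11 and 12 (180 wells) they ran from 75.6% (Il25) to 99.4% (Ifit3), with Cxcl10 at 77.2% and Ifi44 at 79.4%. Wells without a member were thus not confined to a late Gapdh. Between cycles 12 and 15 (71 wells) the shares were 26.8% for Il25, 33.8% for Cxcl10, 39.4% for Ifi44, 46.5% for Ccr6, 53.5% for Ccr2, 56.3% for Ifit3 and 57.7% for Isg15. From cycle 15 on (39 wells) they were 0% for Il25 and Cxcl10, each allowing up to 9.03%, and at most 15.4%, that of Ccr2. All 46 wells of this class with no member detected had Gapdh at cycle 12 or later or undetected. Of these 46 wells, 27 were on the chips of the 7-week animals M10 and M11, which held 129 wells with under 20 assays and 0 with more.

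**Figure D2:**
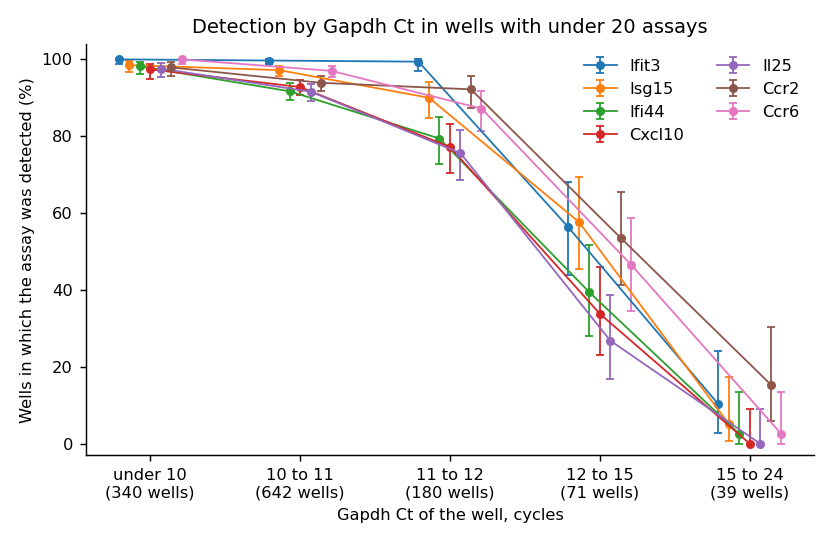
Share of wells with under 20 assays in which each member was detected (y axis, percent, bars are 95% exact intervals for counting error) by the Gapdh Ct of the same well (x axis, cycles, with the number of wells). All members are at 97.4% or more where Gapdh crossed before cycle 10 and at 15.4% or less from cycle 15.

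The members' Ct was then compared between both classes of wells on the same chip, which the rule did not use. Over 15 chips the mean Ct of Ifit3 in wells with under 20 assays was 13.63 ± 0.586 (SD) and in wells with 20 or more 13.93 ± 0.498. Ifi44 was at 14.74 ± 0.639 and 15.07 ± 0.644, Ccr6 at 15.23 ± 0.532 and 15.5 ± 0.539, and Il25 at 16.95 ± 0.775 and 17.16 ± 0.764. Isg15 was at 16.03 ± 0.578 and 15.75 ± 0.532, Cxcl10 at 15.76 ± 0.61 and 16.28 ± 0.542 over 14 chips, and Ccr2 at 15.85 ± 0.664 and 15.5 ± 0.982 over 14 chips. The ranges over chips overlapped for every member. Levels are not compared between assays, since assays can amplify with different efficiency.

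Of 12 assays tested with limma with the chip as a block, 5 passed at an adjusted p of 0.05 (41.7%), and 1 of the 7 members was among them. Cxcl10 crossed 0.52 cycles later in wells with 20 or more assays (SE 0.195, adjusted p = 0.0272, later on 11 of 14 chips). The other 6 members differed by -0.35 (Ccr2) to 0.32 cycles (Ifi44), with adjusted p of 0.153 to 0.309. Gsk3a, in contrast, crossed earlier on 14 of 14 chips, with a difference of -3.885 cycles (SE 0.192, adjusted p = 3.96e-22). Bcl2 differed by -0.86 cycles (earlier on 12 of 13 chips, adjusted p = 0.000922). Gapdh differed by -0.40 cycles (adjusted p = 0.0744). The call of Cxcl10 was lost without the chip of the 6-week sort 13B (adjusted p = 0.0721), of the 12-week sort 13A (0.0717) or of the 13-week animal M3 (0.0524), and also with medians in place of means (0.18). No member passed with calls ignored. The fit took passing readings only, and 64 of the 73 failed Cxcl10 readings were in wells with 20 or more assays. Their median Ct was 14.44, against 15.9 for the passing readings of that class.

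**Figure D3:**
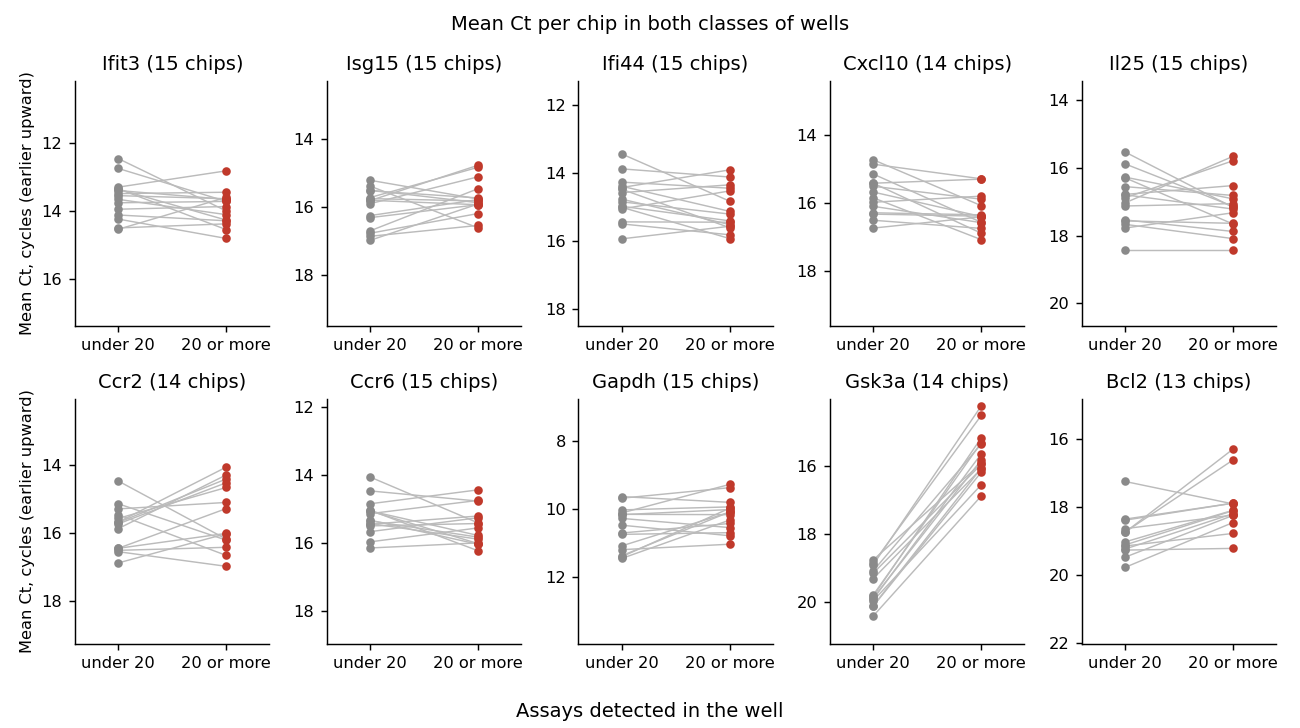
Mean Ct per chip (y axis, cycles, earlier upward, each panel spanning the same number of cycles) in wells with under 20 and with 20 or more detected assays (x axis); each line is 1 chip with at least 5 detected wells in both classes. Lines of each member rise on some chips and fall on others, while those of Gsk3a all rise.

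The members' products melted within a few hundredths of a degree of each other in both classes. The melting temperature is set by the sequence and length of a product. Of 12 assays 2 passed (16.7%), both non-members: Gapdh melted 0.14 °C higher (adjusted p = 4.71e-08) and Gsk3a 0.0878 °C higher (adjusted p = 1.13e-06) in wells with 20 or more assays. Of the 7 members 0 passed with limma, and 0 had an unadjusted p under 0.05, with differences of -0.0177 to 0.0207 °C. Members differed among themselves far more than between classes, from 77.98 °C for Ccr2 and 79.92 °C for Ifi44 to 86.42 °C for Cxcl10 and 86.43 °C for Il25 in wells with 20 or more assays. Only passing readings entered, and a product that melts outside its assay's range is called a fail, as all 73 failed Cxcl10 readings described further on did, so the likeness of both classes is in part set by that selection. These temperatures do not show which template was amplified.

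The spread of Ct between wells was compared over the 15 chips, or 14 for Cxcl10 and Ccr2, with at least 5 detected wells in both classes. The median within-chip SD was 1.05 cycles for Ifit3 in wells with under 20 assays and 1.2 in the others, 1.2 and 1.42 for Ccr6, 1.44 and 1.77 for Ccr2 and 1.43 and 1.65 for Cxcl10. It was 1.7 and 1.36 for Ifi44, 1.95 and 1.82 for Isg15 and 1.47 and 1.43 for Il25. The wells with 20 or more assays were the more spread on 7 to 10 chips for each member. These spreads were not tested.

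Ccr2 had the largest share of early readings among the members. For each chip with at least 20 detected wells under 20 assays, the Ct was found that 95% of those wells exceed. On these chips 71 of 186 wells with 20 or more assays (38.2%, 31.2 to 45.6%) read Ccr2 earlier than that, against 17 of 195 (8.72%) for Ifit3, 12 of 180 (6.67%) for Ifi44, 7 of 168 (4.17%) for Cxcl10, 16 of 172 (9.3%) for Il25, 15 of 189 (7.94%) for Ccr6 and 26 of 189 (13.8%) for Isg15. The same share was 22.4% for Gapdh, 42.2% for Bcl2 and 76.8% for Gsk3a. By construction about 5% of the reference wells lie beyond it. For Ccr2 it was 71.0% in blood (44 of 62 wells on 3 chips), 42.9% in islets (21 of 49 wells on 3 chips), 8.06% in lymph node (5 of 62) and 7.69% in spleen (1 of 13). Gapdh read early in 12.3% of these wells in blood but 52.1% in islets; its part in the islet result was not tested. In blood the shares of the other 6 members were 0 to 14.5%. Bcl2 read early in 62.9% of these wells in blood and 33.9% in lymph node, and Gsk3a in 80.7% and 75.8%.

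The mean Ct of Ccr2 in blood samples differed between the classes of wells. In wells with 20 or more assays the mean Ct of Ccr2 in blood was 13.8 in the separate 8-week blood sample M3, 14 in M2, 14.71 in M1 and 15.1 in M4, and 14.02 in the 8-week animal M3 whose other tissues were also sorted. In wells with under 20 assays the means of 6 blood samples lay between 15.46 and 15.91, so the groups did not overlap. Only the 4 separate 8-week blood samples gave both classes. The 2 blood samples of 7 weeks gave a mean in wells with under 20 assays only. In islets 10 animals or sorts gave 14.53 to 16.33 (median 15.44) in wells with 20 or more assays and 8 gave 15.12 to 16.69 (median 15.64) in the others. In lymph node 8 gave 15.54 to 17.43 (median 16.31) and 16 gave 14.98 to 17.13 (median 16.07). The order in wells with 20 or more assays was thus blood, islets, lymph node, with the 1 spleen sample at 14.8. Blood, 14.33 ± 0.553 (SD, n = 5), overlapped with islets, 15.44 ± 0.668 (n = 10), and islets with lymph node, 16.41 ± 0.597 (n = 8), while blood did not overlap with lymph node. Since all these blood samples were from 8 weeks and most lay on chips of their own, tissue, age and chip cannot be told apart there, except in the 8-week animal M3. On that animal's chip the means were 14.02 in blood, 14.8 in spleen, 14.92 in islets and 15.54 in lymph node.

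The shift between classes, wells with 20 or more minus wells with under 20 assays of the same sample, was -1.2, -1.84, -2.06 and -0.47 cycles for Ccr2 in blood samples M1 to M4 and -0.93 to 2.22 cycles in 7 lymph node samples of both tetramers and of 6 to 13 weeks. Its mean differed between blood and lymph node by -1.66 cycles (two-sided exact permutation p = 0.0182, adjusted over the 7 members p = 0.127; 4 of 4 blood and 3 of 7 lymph node samples below 0). The smallest p this design allows is 0.00606. The difference therefore did not pass after adjustment, and the test was added after the data were seen. With medians over the wells in place of means the adjusted p was 0.0424. The non-member Bcl2 had shifts of -3.39 to -1.55 cycles in 4 blood samples and -1.03 to 0.03 in 5 lymph node samples, which did not overlap, and Gsk3a had -4.81 to -3.26 in 4 blood and -4.29 to -2.90 in 7 lymph node samples; these were not tested. For the other 6 members the difference between blood and lymph node was -0.36 to 0.19 cycles, with adjusted p of 0.905 or more.

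**Figure D4:**
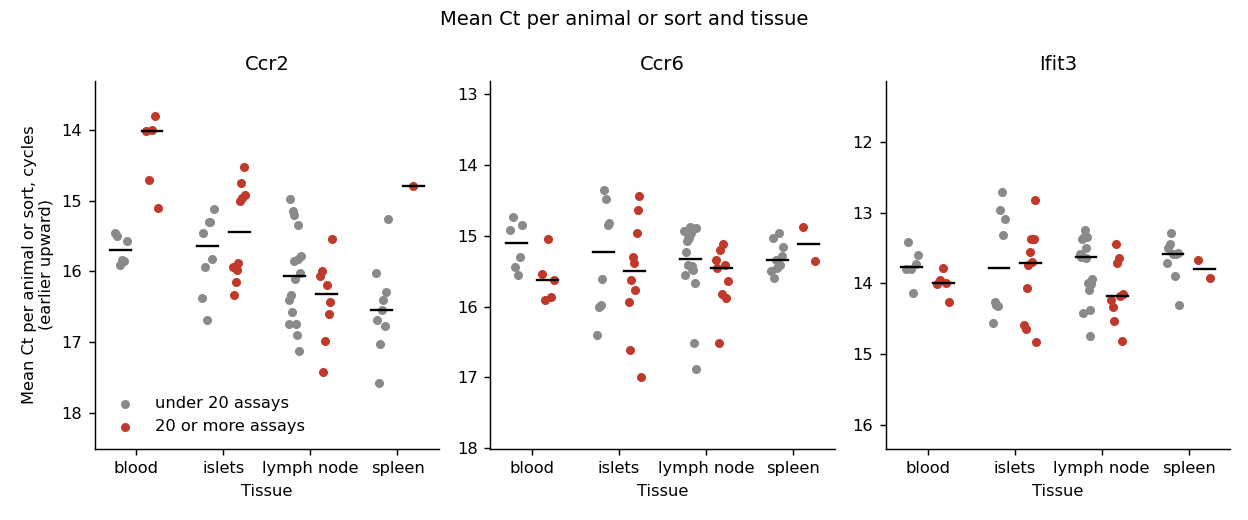
Mean Ct per animal or sort (y axis, cycles, earlier upward) of Ccr2, Ccr6 and Ifit3 by tissue (x axis); grey points are wells with under 20 assays, red points wells with 20 or more, and bars are medians. For Ccr2 in blood the 5 red points, 13.8 to 15.1, lie apart from the 6 grey points, 15.46 to 15.91, which is not so for Ccr6 or Ifit3.

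Tissues were compared next on log2Ex, which is 24 minus Ct with 0 for a well where the assay was not detected, so that a unit mean holds both detection and level and a difference is not a fold change. In wells with under 20 assays, 0 of 16 assays passed between islets and lymph node of the same 4 animals with limma (0.0%; 0 at an unadjusted p under 0.05), and the members' differences ran from -0.23 to 0.60. Between lymph node and spleen of the same 8 sorts 0 of 11 passed (0.0%; again 0 unadjusted), with members from 0.02 to 0.67 higher in lymph node. The median over all assays tested was -0.05 and 0.24, and over the members 0.01 and 0.34.

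Blood was compared with lymph node over 12-20 tetramer wells of 7- and 8-week animals only. Between blood (6 samples) and lymph node (5) wells with under 20 assays, all 7 members had the higher mean in blood, 3 of them past the test, where 4 of 14 assays passed (28.6%). Ifit3 was at 9.86 to 10.58 in blood and at 5.17, 6.08, 8.58, 9.06 and 9.26 in lymph node, which did not overlap (difference 2.62, SE 0.713, adjusted p = 0.0394). Ccr6 differed by 2.31 (adjusted p = 0.0489), Ccr2 by 1.75 (0.0489) and the other 4 members by 1.502 to 2.12 (adjusted p = 0.0598 to 0.0731). The fourth assay was Gapdh, 1.59 higher (adjusted p = 0.0394), with lymph node means of 10.77 in M10, 11.49 in M11 and 12.97 to 13.48 in the others against 13.81 to 14.11 in blood. In wells with Gapdh before cycle 12, an alternative added after the data were seen, 0 of 13 assays passed, Ifit3 differed by 0.24, Ccr6 by 0.54 and Ccr2 by -0.20 (adjusted p = 0.648 for each). No member passed without M11, or without either 7-week blood sample or any of the 8-week blood samples M1, M2 and M4, 1 passed without M10, and 7 without M7. Blood and lymph node lay on different chips, so tissue and chip cannot be told apart. Age was not balanced either: 4 of the 6 blood samples were from 8 weeks, against 1 of the 5 lymph node samples.

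In wells with 20 or more assays most of the panel was higher in islets, and the members were spread around 0. Between islets and lymph node of the same 6 animals 50 of 77 assays passed (64.9%), 47 of them higher in islets, with a median difference of 1.92 over all assays and 0.03 over the members. The largest was Ctla4, a checkpoint receptor of activated T cells, at 5.11 (adjusted p = 0.000707). Of the 7 members only Cxcl10 passed, and it was lower. Its islet means were 4.41, 4.46, 4.66, 4.75, 5.87 and 6.401, below that of the lymph node in 6 of 6 animals, although the lymph node means of 5.42 to 7.05 overlap with them (difference -1.36, SE 0.459, adjusted p = 0.0244). Ccr2 was higher in islets in 6 of 6 animals, by 0.999 (SE 0.433), with an adjusted p of 0.0625. With each sample centred on its mean over the tested assays, 22 assays passed, 9 higher and 13 lower, and 6 members were among the lower ones, all but Ccr2 (-0.77, adjusted p = 0.168). No member passed without the 13-week animal M3 or M4.

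Of 8 other interferon-stimulated genes tested in that comparison 4 were higher in islets and 0 lower (median difference 1.18), as were 3 of 6 other chemokine receptors, with 1 lower. Of 3 interferon receptor and kinase genes 2 were higher and 0 lower (median 2.47). The median over all 77 assays was 1.92, and no list was tested against the panel.

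A second product was read by the Cxcl10 assay, mostly in islets. Over all wells 73 of the 1596 Cxcl10 readings under cycle 24 were called a fail, against 1 to 5 for each other member. Each of the 73 had a melting temperature outside the assay's range, with a median of 82.85 °C (5th to 95th percentile 81.12 to 83.18), while passing readings melted at 86.39 °C (86.15 to 86.76). Of the 73, 51 were in islet wells with 20 or more assays, where they made up 51 of 196 readings and crossed at a median Ct of 14.24 against 15.88 for the passing ones. Lymph node wells with 20 or more assays had 10 of 194, blood 3 of 85 and spleen 0 of 22. In wells with under 20 assays there were 7 of 233 in islets, 2 of 185 in blood, 0 of 414 in lymph node and 0 of 267 in spleen. Some of the failed readings also had a melting temperature within the range. In wells with 20 or more assays, 48 of the 51 in islets and 8 of the 10 in lymph node had none there.

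Among wells with 20 or more assays, the product at the lower temperature was present in each of 10 islet samples, in 12.5 to 50% of readings (median 25.9%). In lymph node it was present in 5 of 9 samples, at 0 to 20.0% (median 3.33%), and in blood in 2 of 5, at up to 8.33%. The ranges overlap, and these shares were looked at after the call had been seen, so they were not tested. When every reading under cycle 24 counted, whatever its call, Cxcl10 was 0.47 higher in islets than in lymph node (adjusted p = 0.356), so its direction turned with these readings. Among wells with 20 or more assays, the 64 with such a reading had a median of 46 detected assays against 40 in the 433 with a passing one, with Irf7 detected in 59.4% against 33.7% and Ifit1 in 23.4% against 8.08%. Of the 64 wells 51 were from islets, against 145 of the 433. Within islets the medians were 47 and 45 detected assays, with Irf7 in 62.7% against 37.2%, Ifit1 in 23.5% against 10.3% and Tbx21 in 31.4% against 42.1%.

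**Figure D5:**
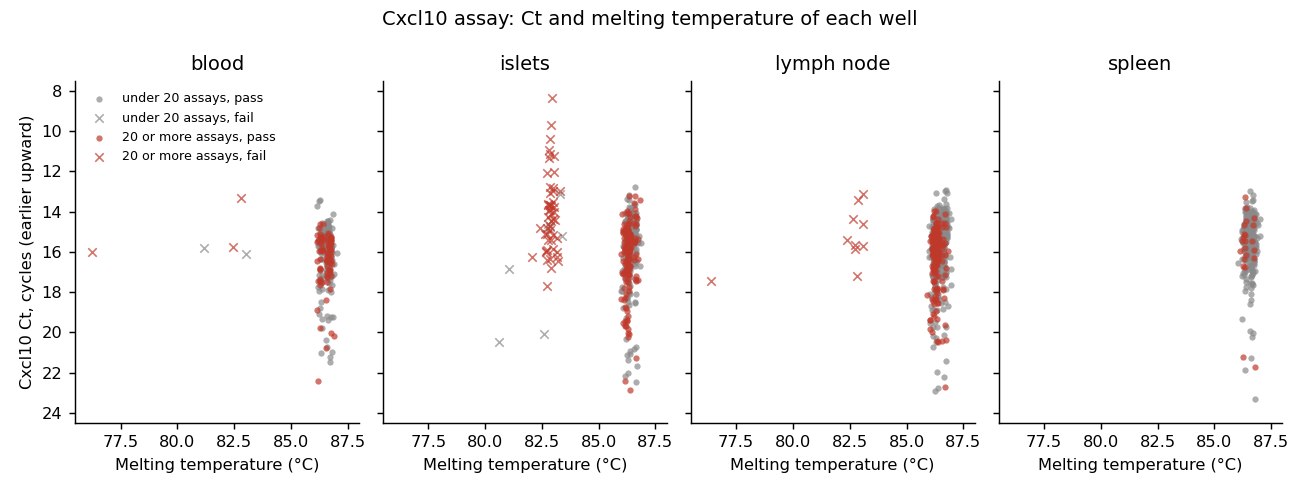
Ct (y axis, cycles, earlier upward) and melting temperature (x axis, °C) of each Cxcl10 reading under cycle 24, by tissue; circles were called pass and crosses fail, grey marks wells with under 20 assays and red wells with 20 or more. Passing readings gather near 86.39 °C in every tissue, and the failed readings, most of them near 82.85 °C, are mainly red crosses in islets.

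In the same 12-20 tetramer comparison, blood wells with 20 or more assays (5 samples) had Ccr2 log2Ex means of 7.85, 8.90, 9.29, 9.98 and 10, and lymph node wells (4 samples) of 7.29, 7.69, 7.94 and 8.18, so that 1 blood sample lay within the lymph node range. Of 71 assays 22 passed (31%), 20 of them higher in blood, and Ccr2 was the one member among them (difference 1.43, SE 0.485, adjusted p = 0.0459). Tbx21, a factor of Th1 cells, had the largest difference at 5.73 (adjusted p = 2.84e-05). The other 6 members differed by -0.82 to 0.50, and the median over all 71 assays was 0.64. All 5 blood samples were from 8 weeks, while 3 of the 4 lymph node samples were from 7 weeks. Blood and lymph node lay on different chips except in the 8-week animal M3, so tissue, age and chip cannot be told apart in this fit. With samples centred on their mean Ccr2 differed by 0.35 (adjusted p = 0.589), and the calls were 9 higher and 13 lower. Leaving out 1 of the 8 animals in turn, Ccr2 did not pass without the 7-week animals M2, M3 or M7, the 8-week animal M3, which gave both a blood and a lymph node sample, or the 8-week blood samples M1, M2 or M4 (adjusted p = 0.0522 to 0.128). It passed without blood sample M3, in which Ccr2 was detected in 10 of 13 wells (1.77, adjusted p = 0.00984).

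The tetramers were set side by side within samples. In 11 pairs of 1 animal and tissue with wells of both tetramers and 20 or more assays, the median difference in log2Ex, 12-20 minus 13-21, ran from -0.04 (Ifit3) to 0.67 (Il25), and single pairs from -4.06 to 4.57. In 10 such pairs of wells with under 20 assays it ran from -0.67 (Ccr2) to 0.01 (Ifit3). These were not tested.

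Within a chip the members' Ct moved with one another and with Gapdh. These are Spearman correlations across wells that share a chip, each well centred on its chip's mean, and are given as descriptions. In wells with under 20 assays the members correlated with Gapdh at 0.362 to 0.608 (1075 to 1203 wells) and with one another at 0.206 to 0.406. The 6 pairs among Ifit3, Isg15, Ifi44 and Cxcl10 lay at 0.208 to 0.389, within the range of the other 15. In wells with 20 or more assays the correlation with the number of other assays detected was lowest for Ccr2 (-0.295 over 508 wells, against 0.273 with Gapdh over 507), and the highest of the 7 was 0.0404. Across 64 samples of 1 animal or sort, tissue and tetramer, the assays most like each member in mean log2Ex were mostly other members or Gapdh. Ifit3 was most like Ifi44 (Spearman 0.866) and Ccr6 (0.865), Cxcl10 like Il25 (0.791) and Ifit3 (0.77), Isg15 like Gapdh (0.829) and Ccr6 (0.719), and Ccr2 like Gapdh (0.756) and Isg15 (0.689). Ifi44 was most like Ifit3 (0.866) and Ccr6 (0.858), Il25 like Cxcl10 (0.791) and Ifi44 (0.788), and Ccr6 like Ifit3 (0.865) and Ifi44 (0.858).

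Isg15 had the largest difference in Ct by detection of other interferon-stimulated genes, which is given as a description with no test. In wells with 20 or more assays in which Ifit1 was detected, Isg15 crossed earlier than in the others, with a difference of -1.4 cycles (52 against 468 wells, chip means taken out). It was earlier on 4 of 4 chips with at least 5 wells of each kind, at -1.92 to -1.19 cycles. The same difference was -0.50 for Ifit3 (earlier on 3 of 4 chips), -0.44 for Ifi44 (2 of 4), -0.22 for Cxcl10 (2 of 3), -0.38 for Il25 (3 of 4), -0.49 for Ccr6 (3 of 4), -0.33 for Ccr2 (2 of 4) and -0.31 for Gapdh (2 of 4). For wells with Mx1, an antiviral GTPase, the difference was -0.84 cycles for Isg15 (earlier on 3 of 4 chips) and 0.11 for Ifit3, and for wells with Irf7 it was -0.51 for Isg15 (8 of 10) and 0.03 for Ifit3. Where both were detected, the Ct of Isg15 and Ifit1 correlated at 0.497 (52 wells), that of Ifit3 and Ifit1 at 0.351 (52) and that of Ifi44 and Ifit1 at 0.0164 (47). With undetected wells set to 0, the log2Ex of the 4 interferon-stimulated members correlated with 8 others at a median of -0.0183 (32 pairs, 549 wells). Among those 8 others the correlations had a median of 0.19 and reached 0.503, that of Ifit1 with Rsad2. Ifit3, Isg15 and Cxcl10 hold the motif printed above as Ifit1 does. Of these 3, Isg15 had the largest difference in Ct with detection of Ifit1 and Cxcl10 the smallest. Ccr6, Ifi44 and Ccr2, whose windows held no motif, lay between Ifit3 and Cxcl10. A link between the motif and these differences was not tested.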

How the data were processed

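Per the file headers and the labels' protocols, the authors ran single sorted cells on 96-assay quantitative PCR chips and deposited, for each well and assay, a Ct in cycles, a quality value, a pass or fail call and melting temperatures in °C, exported with Fluidigm Real-Time PCR Analysis 4.0.1 per the submitters' processing notes. The export's quality threshold was 0.65, per the file headers. Of 2112 wells, 1829 matched a label and 6 of these had contradictory labels, which left 1823; the other 283 were not analysed here.

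The deposited Ct was used with a limit of 24. log2Ex is 24 minus Ct, or 0 for an assay not detected. Means need at least 5 wells. Linear models were fitted in limma 3.58.1 (R 4.3.3) and moderated with eBayes, with the chip or animal as a block where both groups lay on it. P-values were adjusted by Benjamini-Hochberg over all assays tested, at a threshold of 0.05. Assays detected in at least 5% of wells of either group entered the tissue fits. The Ct and melting temperature fits took assays with at least 5 detected wells of each class on at least 3 chips. Other values were computed with python 3.11.15, pandas 2.3.3, numpy 2.4.6 and scipy 1.17.1, and intervals are exact binomial ones at 95%, covering counting error only. The fits were tested on simulated data in which assays varied independently and the planted shifts were large against the residual spread. That test does not show how well smaller differences are found. Alternatives changed the class cutoff, the Ct limit, the calls, the block, the summary, the scaling, the filter and the animals.

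The pairing comes from the labels: same-numbered samples share an animal or a chip. The deviations of paired samples correlated at a median of 0.47 over 15 chips in the Ct fit (10 of 15 over 0.1), 0.817 in the melting temperature fit, and 0.753, 0.295 and 0.279 in the paired tissue fits, where every pair was over 0.1.

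The members and lists were chosen with earlier results of these data known. Named are the members in every comparison, Gapdh, Cd4, Cd3e and assays detected in over 50% of wells with under 20 assays, the 3 assays next below, the 2 assays most like each member, and in each fit the assay with the largest difference that passed. Genes of the fixed lists were named beyond this rule after their values were seen, as was Ifi44l, which is on no list. Results of some assays that this rule names are not reported here.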

Additional observations from a re-analysis of the deposited data

Results flagged for a closer look

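Of 70 groups of samples checked for a value far from the others, 7 had one, and 6 of these 7 values were from the same sort. In spleen wells with under 20 assays, the 12-week sort 13A lay below the other 7 sorts for 6 members: its log2Ex was 3.972 for Ccr2, 4.403 for Ccr6, 4.76 for Cxcl10, 4.665 for Ifi44, 6.539 for Ifit3 and 5.134 for Isg15. These 6 readings come from the same 21 wells, which had a mean Gapdh Ct of 12.35 against 10.42 in the 40 lymph node wells of that sort on the same chip; its part in the low values was not tested. In 12-20 tetramer lymph node wells with 20 or more assays at 7 and 8 weeks, the 8-week animal M3 had the lowest Ifi44, a log2Ex of 6.402, among 4 animals.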

How the results depend on the processing

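Counts of assays passing are given as assays, then as members. For Ct between the classes of wells (5 and 1), 9 assays passed with a cutoff of 25 assays, 21 with calls ignored, 2 with at least 10 wells and 3 in wells with Gapdh before cycle 12; 0 members passed with calls ignored, with at least 10 wells, with medians, and with no replicate block, and leaving out each chip gave 3 to 6 assays and 0 to 1 members. For melting temperature 1 assay passed with no replicate block against 2. Without the replicate block 43 assays passed for islets against lymph node, wells with 20 or more assays, against 50, with the same 1 member, Cxcl10, and 0 passed in the other paired tissue fits, as with it.

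For islets against lymph node, wells with 20 or more assays (50 and 1), 27 assays passed on mean Ct, 22 with centred samples and 20 in 13-21 wells only. The members passing were 2 with a cutoff of 15, 0 on mean Ct, 6 centred, 3 with no filter and 0 in 13-21 wells only; leaving out each animal gave 40 to 47 assays and 0 to 1 members. Cxcl10 turned to 0.47 with calls ignored and Ccr2 to -0.77 when centred. For lymph node against spleen, 1 assay, a member, passed on mean Ct.

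For blood against lymph node, wells under 20 assays (4 and 3), 0 assays and 0 members passed with a cutoff of 15, with classes over the other 89 assays, on the share detected, with no filter and in wells with Gapdh before cycle 12. On mean Ct 1 and 0 passed, centred 2 and 1, with a Ct limit of 26 2 and 1, and with calls ignored 10 assays; leaving out each animal gave 0 to 8 and 0 to 7. Ccr2 turned to -0.0084 on mean Ct and to -0.20 with Gapdh before cycle 12. In wells with 20 or more assays (22 and 1), 2 assays passed on mean Ct, and 0 members with a cutoff of 25, at least 10 wells, a Ct limit of 26, the share detected and no filter; leaving out each animal gave 14 to 23 and 0 to 1. Ccr2 turned to -1.09 percentage points on the share detected. The added Ccr2 shift was -1.82 cycles with medians, and -1.97 to -1.34 leaving out each animal. Of 718 values of members given only as ranges, 108 turned sign under an alternative and 13 then passed. The cause of these changes was not tested. The difference in the share of wells detecting Cxcl10, wells with 20 or more minus under 20 assays, turned from -6.69 to 4.26 percentage points with calls ignored. This alternative, the Gapdh limit and the shift test were chosen after seeing the data.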
